A study of Mus musculus with 12 samples.

Results

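The genes described here are 43 enzymes and carriers of the citric acid cycle and of fatty acid oxidation, taken as a list of names from the 15234 genes tested on the arrays. The list holds 14 genes of the citric acid cycle, 5 of the pyruvate dehydrogenase complex and its kinases, 4 of fatty acid uptake, binding and activation, 4 of the carnitine shuttle, 9 of beta-oxidation, 3 of electron transfer from the acyl-CoA dehydrogenases, 3 of ketone body use, and the uncoupling protein gene Ucp3. All 43 were on the array, and the probe used for each was well above background on all 12 arrays. The genes were taken by name, and where several probes read a gene the brightest was used.

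Total RNA from whole gastrocnemius muscle of adult male CD1 mice was measured in 4 groups of 3 arrays: wild-type (WT) control muscle, WT muscle after 14 days of denervation, Smad4 knockout (KO) control muscle, and KO muscle after 14 days of denervation. Denervation is the loss of a muscle's motor nerve supply, and Smad4 is the partner protein that the receptor-activated Smads share in TGF-beta and BMP signalling. The allele, the promoter of any Cre, the cells that lost Smad4, the way the nerve was interrupted and whether a control muscle came from the same mouse as a denervated one are not given in the sources used here. Nothing in the labels says that the 3 samples of a group came from separate animals, so p-values measure the spread between these samples, which may be partly technical.

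The citric acid cycle takes up the acetyl groups made from pyruvate and from fatty acids and passes their electrons to the respiratory chain. Long-chain fatty acids are taken up, bound to carrier proteins, activated to acyl-CoA, carried into mitochondria as acylcarnitines and shortened there by beta-oxidation. Skeletal muscle rich in oxidative fibres is known for high levels of these enzymes, and their genes are known targets of the PPAR and estrogen-related receptors with their PGC-1 coactivators.

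The arrays were read as the log2 of the processed signal with the 75th percentile of that array subtracted (the scaled log2 signal below), so 0 is the level of a fairly bright probe, and every difference is a log2 difference given with its standard error. The 75th percentile lay between 219 and 364 intensity units, 50.2% to 53.8% of probes were well above background on control arrays and 53.1% to 56.4% on denervated arrays, and no probe was saturated. Arrays of 1 group correlated at 0.974 to 0.985 over all genes. The Smad4 probe gave 3.59 to 4.02 in WT control, 3.18 to 3.49 in WT denervated, 2.19 to 2.42 in KO control and 1.77 to 2.05 in KO denervated muscle, so the KO arrays lay below the WT arrays. Which part of the gene was deleted is not given in the sources used here. Muscle fibre markers gave a summed signal (10 of 12 markers, those with a value on every array) of 1660 to 3240 times the 75th percentile over the 12 arrays.

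RefSeq promoter sequences (build GRCm38.p6) were found for 38 of the 43 genes; Idh3a, Cpt1b, Decr1, Lpl and Acat1 had no entry. Windows of 270 bases, from 250 before to 20 after the annotated start, were searched on both strands. The 38 genes had 46 windows, since 4 genes had more than 1 annotated start, and a match in any window counted for its gene. Those below are shown because they belong to genes the results turn on or hold a searched motif, in capitals; all are written 5′ to 3′ along the gene.
Acadm, chr3:153944624-153944893, minus strand: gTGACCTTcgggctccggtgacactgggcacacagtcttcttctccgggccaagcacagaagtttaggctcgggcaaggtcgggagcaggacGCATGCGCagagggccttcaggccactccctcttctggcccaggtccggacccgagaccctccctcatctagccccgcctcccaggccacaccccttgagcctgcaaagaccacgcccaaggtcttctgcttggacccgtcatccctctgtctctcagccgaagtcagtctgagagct
Ogdh, chr11:6291920-6292189, plus strand: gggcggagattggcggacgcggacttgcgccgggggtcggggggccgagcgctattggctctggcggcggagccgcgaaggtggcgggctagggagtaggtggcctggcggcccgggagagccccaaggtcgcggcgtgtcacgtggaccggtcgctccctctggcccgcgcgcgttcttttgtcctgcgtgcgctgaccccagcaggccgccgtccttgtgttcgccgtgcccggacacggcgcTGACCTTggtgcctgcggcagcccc
Fabp3, chr4:130308488-130308757, plus strand: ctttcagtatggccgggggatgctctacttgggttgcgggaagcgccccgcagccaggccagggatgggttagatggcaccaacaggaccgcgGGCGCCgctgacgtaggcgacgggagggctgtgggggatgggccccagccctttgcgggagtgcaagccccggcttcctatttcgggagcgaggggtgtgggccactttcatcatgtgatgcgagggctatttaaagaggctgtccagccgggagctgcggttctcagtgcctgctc
Idh2, chr7:80115331-80115600, minus strand: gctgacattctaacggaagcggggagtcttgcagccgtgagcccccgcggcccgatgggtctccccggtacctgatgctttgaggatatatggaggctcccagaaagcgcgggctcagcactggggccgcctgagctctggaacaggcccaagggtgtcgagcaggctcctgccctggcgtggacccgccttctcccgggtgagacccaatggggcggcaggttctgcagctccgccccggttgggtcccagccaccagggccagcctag
Oxct1, chr15:4026178-4026447, plus strand: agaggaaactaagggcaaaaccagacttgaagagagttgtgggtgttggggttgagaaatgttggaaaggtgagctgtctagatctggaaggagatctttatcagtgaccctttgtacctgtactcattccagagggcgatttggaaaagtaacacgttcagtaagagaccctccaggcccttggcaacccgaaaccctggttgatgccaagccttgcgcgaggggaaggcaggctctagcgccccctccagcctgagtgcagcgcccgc
Cpt1a, chr19:3323051-3323320, plus strand: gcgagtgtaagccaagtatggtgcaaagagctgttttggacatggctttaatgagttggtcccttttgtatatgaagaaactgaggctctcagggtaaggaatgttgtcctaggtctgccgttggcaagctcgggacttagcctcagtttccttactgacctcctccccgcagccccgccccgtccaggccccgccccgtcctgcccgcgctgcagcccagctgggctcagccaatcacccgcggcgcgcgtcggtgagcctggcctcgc
The capitals mark the nuclear receptor core site AAGGTCA and the NRF1 core GCGCATGC in the Acadm window, the core site in this Ogdh window (1 of 6), and GGCGCC in the Fabp3 window, each as read on this strand (TGACCTT and GCATGCGC are the reverse complements). The Idh2, Oxct1 and Cpt1a windows held none of the searched motifs. The core site was present in the windows of 2 of 38 genes, Acadm and Ogdh (5.26%), against 4.97% of all 27025 genes in the table. Its longer form TCAAGGTCA, the estrogen-related receptor element, and a direct repeat of AGGTCA spaced by 1 base, the PPAR element, were in none of the 38 (0.444% and 0.0407% of all genes). Of 4 motifs added after these 3 had been searched, the NRF1 core was present for 4 genes, Ogdh, Acadm, Etfa and Etfdh (10.53%, against 2.84% of all genes), for Ogdh in windows other than the one shown. The ETS site CCGGAAGT was present for Dlst, Cpt2 and Slc25a20 (7.89%, against 3.92%), the palindrome GTCTAGAC for none (0.218% of all genes), and GGCGCC, a GC-rich Smad site, for 9 genes (23.7%, against 11.8%). The members' windows had a median GC content of 60.4%, against 52.6% over all windows, and GCGCATGC, CCGGAAGT and GGCGCC are GC-rich; the shares were not corrected for this.

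Denervation lowered most of these genes in both genotypes. In WT muscle 36 of 43 were lower and 0 were higher (limma, adjusted p under 0.05 over all genes), where 20.6% of all genes were lower and 18.7% higher. In KO muscle 40 of 43 were lower and 0 higher, where 23.2% of all genes were lower and 23.7% higher. At an unadjusted p under 0.05, 1 member was higher in each genotype, Pdk4 in WT and Cpt1a in KO. The median difference over the 43 genes was -0.80 in WT and -1.22 in KO, against -0.02 and 0.00 over all genes tested, and 14 genes in WT and 28 in KO were lower by at least 2-fold. The same 36 genes were lower in both; Slc25a20, Acadl, Acsl1 and Etfa passed the test in KO alone, and Pdk4, Cpt1a and Ucp3 in neither. The WT arrays were unevenly spread over slides and scan days: denervated replicates 2 and 3 were on slide 4 and scan day 2, and all 3 WT control arrays on slides 1 to 3 and scan day 1. With the slide as a block 26 of the 36 WT genes stayed lower, and Ogdh, Dlst, Sucla2, Pdhb, Dlat, Pdk2, Acads, Acadvl, Hadhb and Etfb lost the call. With the scan day as a block 30 did, without Ogdh, Dlst, Pdhb, Pdk2, Acads and Hadhb; the WT median was -0.79 in either fit. In KO the slide block ended the calls of Hadh and Etfa and the scan day block none of the 40.

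**Figure D1:**
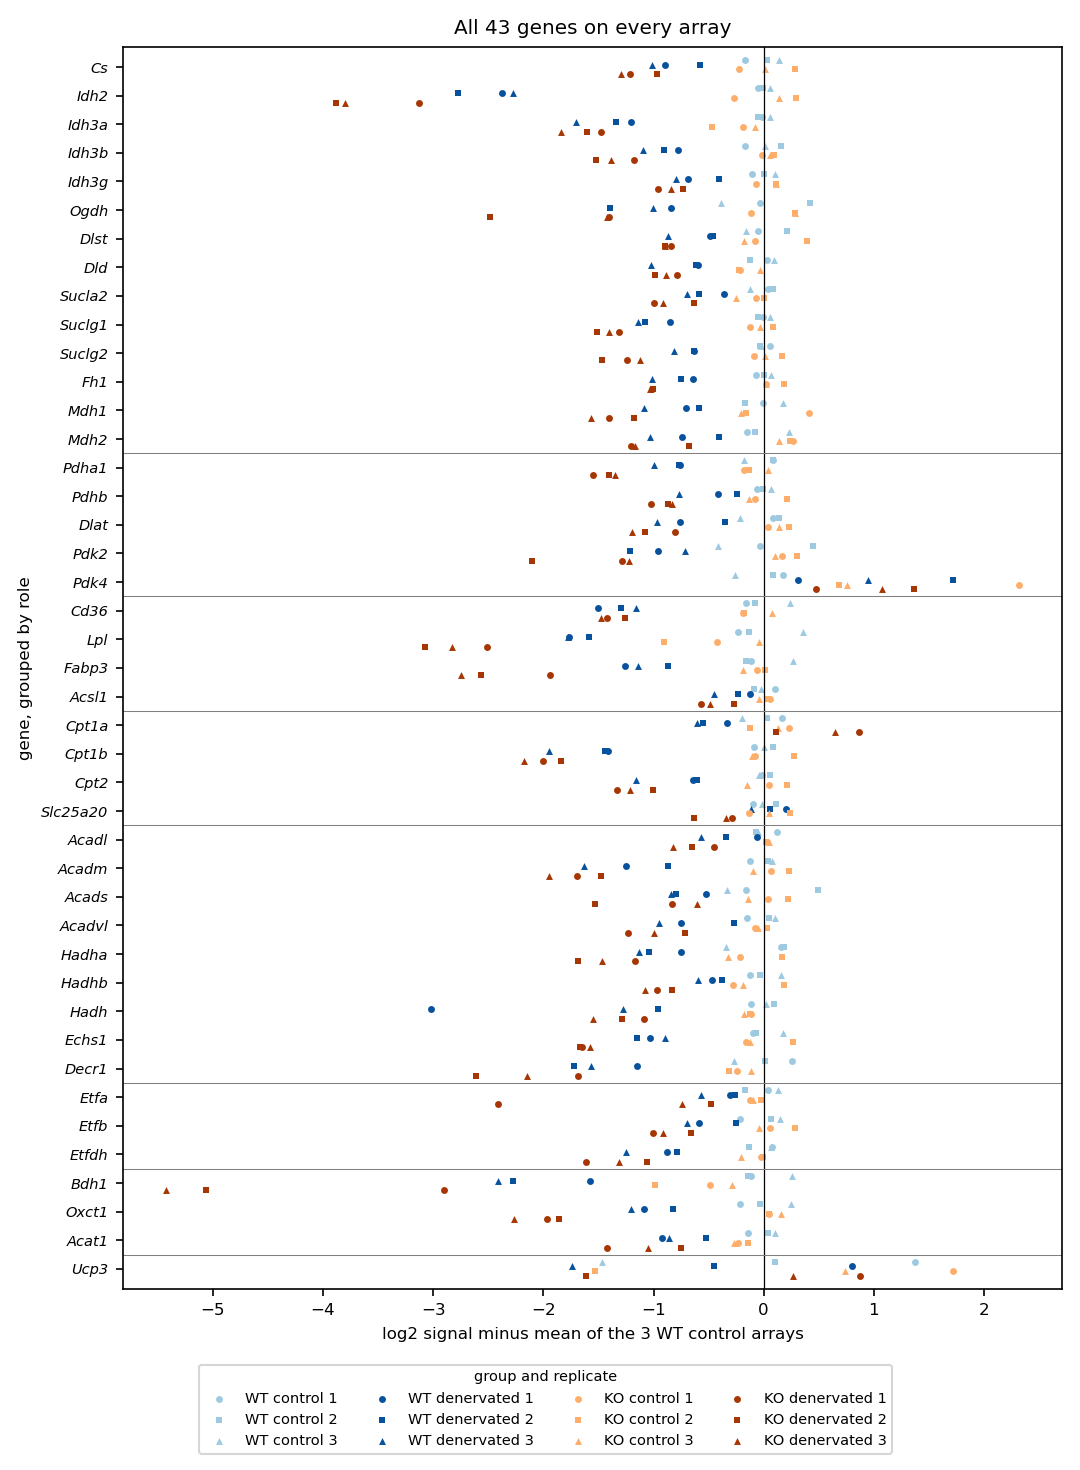
Scaled log2 signal of each of the 43 genes on each of the 12 arrays, minus the mean of the 3 WT control arrays, with genes on the vertical axis grouped by role (grey lines) and marker shape giving the replicate number. Dark blue (WT denervated) and dark brown (KO denervated) points lie left of the light control points for most genes. Pdk4, Cpt1a and Ucp3 are the genes that passed the test (adjusted p under 0.05) in neither genotype.

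The citric acid cycle was lower throughout: 14 of 14 genes in WT and 14 of 14 in KO, with medians of -0.80 and -1.27. Citrate synthase, Cs, which joins acetyl-CoA to oxaloacetate in the first step of the cycle, gave 7.19, 7.39 and 7.49 on the WT control arrays and 6.46, 6.78 and 6.35 on the WT denervated arrays, against 7.14, 7.64 and 7.37 in KO control and 6.14, 6.39 and 6.06 in KO denervated muscle. Its denervated minus control difference was -0.83 ± 0.18 in WT (1.78-fold lower, adjusted p = 0.00353) and -1.19 ± 0.18 in KO (2.28-fold lower, adjusted p = 0.000282). All denervated arrays lay below all control arrays of their genotype, as they did for each of the 14 genes in both genotypes. The share of all genes with this pattern is not given here. By the test, 20.6% of all genes were lower in WT and 23.2% in KO. Idh2, the mitochondrial NADP-dependent isocitrate dehydrogenase, gave 3.96, 4.0 and 4.06 on the WT control arrays and 1.64, 1.23 and 1.73 on the WT denervated arrays, against 3.73, 4.30 and 4.14 in KO control and 0.88, 0.13 and 0.21 in KO denervated muscle. The difference was -2.47 ± 0.22 in WT (5.55-fold lower, adjusted p = 1.22e-05) and -3.66 ± 0.22 in KO (12.6-fold lower, adjusted p = 7.45e-07), the largest fall of the cycle genes in both genotypes. The denervated KO arrays also lay below the denervated WT arrays, with no overlap. Idh3a, the catalytic subunit of the NAD-dependent isocitrate dehydrogenase, gave 6.18, 6.14 and 6.25 on the WT control arrays and 4.98, 4.85 and 4.49 on the WT denervated arrays, against 6.0, 5.72 and 6.11 in KO control and 4.71, 4.58 and 4.35 in KO denervated muscle. Its difference was -1.42 ± 0.17 in WT (2.67-fold lower, adjusted p = 7.75e-05) and -1.40 ± 0.17 in KO (2.63-fold lower, adjusted p = 6.3e-05). The companion subunits Idh3b (-0.93 ± 0.15 in WT, -1.41 ± 0.15 in KO) and Idh3g (-0.63 ± 0.14 and -0.90 ± 0.14) fell as well.

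Ogdh, the first subunit of the 2-oxoglutarate dehydrogenase complex, gave 4.30, 4.75 and 3.94 on the WT control arrays and 3.49, 2.93 and 3.32 on the WT denervated arrays, against 4.22, 4.62 and 4.62 in KO control and 2.93, 1.85 and 2.91 in KO denervated muscle. The difference was -1.08 ± 0.30 in WT (2.12-fold lower, adjusted p = 0.0158) and -1.92 ± 0.30 in KO (3.79-fold lower, adjusted p = 0.000426). The control arrays were spread over 0.81 log2 units in WT, and KO denervated replicate 2 was the lowest array. The other subunits of that complex fell too. Dlst, the succinyltransferase, differed by -0.61 ± 0.18 in WT and -0.92 ± 0.18 in KO, and Dld, the dehydrogenase shared with the pyruvate complex, by -0.74 ± 0.15 and -0.73 ± 0.15. Suclg1, the alpha subunit of succinyl-CoA synthetase, gave 6.41, 6.36 and 6.47 on the WT control arrays and 5.56, 5.33 and 5.27 on the WT denervated arrays, against 6.29, 6.50 and 6.38 in KO control and 5.09, 4.90 and 5.01 in KO denervated muscle. It changed by -1.02 ± 0.13 in WT (2.03-fold lower, adjusted p = 0.000124) and -1.39 ± 0.13 in KO (2.61-fold lower, adjusted p = 1.13e-05). Arrays of 1 group lay close together, and the KO denervated arrays were the lowest 3 of the 12. Its GDP-forming partner Suclg2 changed by -0.69 ± 0.14 in WT and -1.31 ± 0.14 in KO, and the ADP-forming partner Sucla2 by -0.55 ± 0.15 and -0.74 ± 0.15. Mdh2, the mitochondrial malate dehydrogenase that closes the cycle, gave 8.0, 8.08 and 8.39 on the WT control arrays and 7.42, 7.75 and 7.13 on the WT denervated arrays, against 8.42, 8.40 and 8.30 in KO control and 6.95, 7.47 and 6.99 in KO denervated muscle. The difference was -0.73 ± 0.20 in WT (1.65-fold lower, adjusted p = 0.013) and -1.23 ± 0.20 in KO (2.35-fold lower, adjusted p = 0.000439). Fh1, fumarase, and Mdh1, the cytosolic malate dehydrogenase, fell in both genotypes: the difference of Fh1 was -0.80 ± 0.13 in WT and -1.09 ± 0.13 in KO, and that of Mdh1 -0.80 ± 0.20 and -1.40 ± 0.20.

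The pyruvate dehydrogenase complex, which makes acetyl-CoA from pyruvate, was lower in both genotypes in Pdha1, Pdhb and Dlat, and of its kinases Pdk2 was lower and Pdk4 did not pass the test. Pdha1, the E1 alpha subunit, gave 5.09, 5.08 and 4.82 on the WT control arrays and 4.24, 4.23 and 4.0 on the WT denervated arrays, against 4.82, 4.87 and 5.03 in KO control and 3.44, 3.60 and 3.64 in KO denervated muscle. It differed by -0.84 ± 0.14 in WT (1.79-fold lower, adjusted p = 0.000733) and -1.34 ± 0.14 in KO (2.54-fold lower, adjusted p = 2.1e-05). Denervated and control arrays did not overlap. Pdhb, the E1 beta subunit, differed by -0.47 ± 0.16 in WT and -0.91 ± 0.16 in KO, and Dlat, the E2 subunit, by -0.70 ± 0.18 and -1.16 ± 0.18. Pdk2, a kinase that switches the complex off, gave 2.25, 2.73 and 1.87 on the WT control arrays and 1.32, 1.07 and 1.57 on the WT denervated arrays, against 2.45, 2.59 and 2.39 in KO control and 1.00, 0.18 and 1.06 in KO denervated muscle. It differed by -0.96 ± 0.27 in WT (1.95-fold lower, adjusted p = 0.0144) and -1.73 ± 0.27 in KO (3.32-fold lower, adjusted p = 0.000351). The 3 denervated arrays lay below the 3 control arrays in each genotype. Pdk4, the kinase of fasting and fat use, gave 4.64, 4.54 and 4.21 on the WT control arrays and 4.78, 6.18 and 5.41 on the WT denervated arrays, against 6.78, 5.14 and 5.22 in KO control and 4.93, 5.83 and 5.54 in KO denervated muscle. The difference was 0.99 ± 0.45 in WT (95% interval 0.00 to 1.98, adjusted p = 0.104) and -0.28 ± 0.45 in KO (95% interval -1.27 to 0.71, adjusted p = 0.634). The 3 WT denervated arrays lay above the 3 WT control arrays; in KO the groups overlapped and KO control replicate 1 was the highest of all 12 arrays. Without that array, the KO difference of Pdk4 was 0.25 instead of -0.28, and its WT difference passed the test (adjusted p = 0.038; 0.038 to 0.63 over the 24 alternatives). Without WT denervated replicate 2 the WT difference was 0.63.

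Of the genes of fatty acid uptake, binding and activation, 3 of 4 were lower in WT and 4 of 4 in KO. Lpl, the lipoprotein lipase that frees fatty acids from circulating triglyceride, gave 5.93, 6.03 and 6.52 on the WT control arrays and 4.40, 4.58 and 4.39 on the WT denervated arrays, against 5.74, 5.25 and 6.12 in KO control and 3.65, 3.09 and 3.33 in KO denervated muscle. It differed by -1.71 ± 0.24 in WT (3.27-fold lower, adjusted p = 0.000249) and -2.35 ± 0.24 in KO (5.09-fold lower, adjusted p = 1.97e-05). Denervated and control arrays were well apart in both genotypes. Cd36, a fatty acid transporter of the plasma membrane, gave 3.37, 3.45 and 3.77 on the WT control arrays and 2.02, 2.24 and 2.37 on the WT denervated arrays, against 3.35, 3.35 and 3.60 in KO control and 2.11, 2.27 and 2.05 in KO denervated muscle. The difference was -1.32 ± 0.16 in WT (2.49-fold lower, adjusted p = 7.59e-05) and -1.29 ± 0.16 in KO (2.44-fold lower, adjusted p = 6.62e-05). Fabp3, the fatty acid binding protein of heart and muscle, gave 6.81, 6.77 and 7.19 on the WT control arrays and 5.67, 6.05 and 5.78 on the WT denervated arrays, against 6.87, 6.94 and 6.74 in KO control and 4.99, 4.35 and 4.18 in KO denervated muscle. Its difference was -1.09 ± 0.21 in WT (2.13-fold lower, adjusted p = 0.00217) and -2.34 ± 0.21 in KO (5.07-fold lower, adjusted p = 9.6e-06). All denervated arrays were below the control arrays, and the KO denervated arrays were below the WT denervated ones. Acsl1, the acyl-CoA synthetase that activates long-chain fatty acids, gave 5.73, 5.54 and 5.60 on the WT control arrays and 5.50, 5.40 and 5.17 on the WT denervated arrays, against 5.68, 5.67 and 5.59 in KO control and 5.06, 5.35 and 5.14 in KO denervated muscle. It differed by -0.27 ± 0.14 in WT and -0.46 ± 0.14 in KO, with adjusted p-values of 0.139 and 0.017. All denervated arrays lay below the control arrays in both genotypes, by a small margin in WT.

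Both Lpl and Cd36 are also expressed by cells other than muscle fibres, and in whole muscle fewer cells of a type and less RNA per cell cannot be told apart. Endothelial markers were lower in 7 of 10 genes in WT and 8 of 10 in KO. Their summed signal, in multiples of the array's 75th percentile, was 36.5 to 43 in WT control, 17.1 to 26.6 in WT denervated, 43.2 to 44.8 in KO control and 21.2 to 26.5 in KO denervated muscle. Adipocyte markers were called in 0 of 5 genes in either genotype by limma (0 at an unadjusted p under 0.05), with sums of 43.2 to 102 and 50.8 to 111 in WT control and denervated muscle and of 62.9 to 125 and 71.4 to 85.6 in KO. Muscle fibre markers were lower in 1 of 12 genes in WT, and in KO 5 were lower and 1 higher. Schwann cell markers were lower in 2 of 4 genes and erythrocyte markers in 3 of 3 in both genotypes, and macrophage markers were higher in 1 of 7 in WT and 3 of 7 in KO. Fibroblast markers were lower in 1 of 5 genes in WT, and 0 of 5 were called in KO. The part of these cells in the changes of the 43 genes was not tested.

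In the carnitine shuttle 2 of 4 genes were lower in WT and 3 of 4 in KO. Cpt1b, the muscle form of the outer-membrane carnitine palmitoyltransferase that admits fatty acids to mitochondria, gave 4.97, 5.14 and 5.06 on the WT control arrays and 3.64, 3.62 and 3.11 on the WT denervated arrays, against 4.98, 5.33 and 4.95 in KO control and 3.06, 3.22 and 2.89 in KO denervated muscle. It differed by -1.60 ± 0.18 in WT (3.03-fold lower, adjusted p = 4.86e-05) and -2.03 ± 0.18 in KO (4.09-fold lower, adjusted p = 7.26e-06). No denervated array came within 1 log2 unit of a control array. Cpt1a, the liver form of the same enzyme, gave -0.16, -0.29 and -0.51 on the WT control arrays and -0.65, -0.87 and -0.93 on the WT denervated arrays, against -0.09, -0.44 and -0.19 in KO control and 0.54, -0.20 and 0.33 in KO denervated muscle. Its difference was -0.50 ± 0.20 in WT and 0.46 ± 0.20 in KO, with adjusted p-values of 0.0677 and 0.0756. The WT denervated arrays were the lowest 3 of the 12, and 2 of the 3 KO denervated arrays were the highest. Cpt2, which rebuilds acyl-CoA inside the mitochondrion, fell, with differences of -0.80 ± 0.17 in WT and -1.22 ± 0.17 in KO. Slc25a20, the carnitine-acylcarnitine carrier of the inner membrane, differed by 0.05 ± 0.15 in WT and -0.47 ± 0.15 in KO, with adjusted p-values of 0.829 and 0.0257.

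Beta-oxidation was lower in 8 of 9 genes in WT and 9 of 9 in KO, with medians of -0.97 and -1.17. Acadm, the medium-chain acyl-CoA dehydrogenase, gave 6.28, 6.44 and 6.48 on the WT control arrays and 5.15, 5.53 and 4.77 on the WT denervated arrays, against 6.47, 6.63 and 6.30 in KO control and 4.70, 4.92 and 4.45 in KO denervated muscle. The difference was -1.25 ± 0.20 in WT (2.37-fold lower, adjusted p = 0.000609) and -1.77 ± 0.20 in KO (3.42-fold lower, adjusted p = 4.03e-05). Control and denervated arrays were apart by at least 0.75 log2 units in WT and 1.38 in KO. Acadvl, the very-long-chain acyl-CoA dehydrogenase, gave 6.43, 6.63 and 6.68 on the WT control arrays and 5.83, 6.31 and 5.63 on the WT denervated arrays, against 6.50, 6.61 and 6.53 in KO control and 5.35, 5.87 and 5.59 in KO denervated muscle. It differed by -0.66 ± 0.19 in WT (1.58-fold lower, adjusted p = 0.0187) and -0.94 ± 0.19 in KO (1.92-fold lower, adjusted p = 0.00201). The short-chain enzyme Acads differed by -0.72 ± 0.26 and -1.03 ± 0.26, and the long-chain enzyme Acadl by -0.32 ± 0.16 (adjusted p = 0.125) and -0.67 ± 0.16. Hadha, the alpha subunit of the trifunctional protein that carries out the later steps on long chains, gave 2.99, 3.01 and 2.49 on the WT control arrays and 2.08, 1.79 and 1.70 on the WT denervated arrays, against 2.62, 3.00 and 2.51 in KO control and 1.67, 1.14 and 1.37 in KO denervated muscle. It differed by -0.97 ± 0.21 in WT (1.96-fold lower, adjusted p = 0.00346) and -1.32 ± 0.21 in KO (2.49-fold lower, adjusted p = 0.000397), and its beta subunit Hadhb by -0.48 ± 0.16 and -0.86 ± 0.16. Echs1, the short-chain enoyl-CoA hydratase, and Decr1, the dienoyl-CoA reductase needed for unsaturated chains, fell in both genotypes: the difference of Echs1 was -1.03 ± 0.15 in WT and -1.63 ± 0.15 in KO, and that of Decr1 -1.48 ± 0.24 and -1.92 ± 0.24.

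Hadh, the short-chain hydroxyacyl-CoA dehydrogenase, differed by -1.75 ± 0.41 in WT and -1.17 ± 0.41 in KO. On the WT denervated arrays it read 1.62, 3.67 and 3.36, so replicate 1 stood far below its group, while the KO denervated arrays read 3.55, 3.35 and 3.09. Without that replicate the WT difference of Hadh was -1.12 and still passed the test. Etfa, the alpha subunit of the electron transfer flavoprotein that accepts electrons from the acyl-CoA dehydrogenases, had 1 such array in KO. Its KO denervated values were 2.89, 4.82 and 4.56, and its difference was -0.38 ± 0.39 in WT and -1.12 ± 0.39 in KO, with adjusted p-values of 0.465 and 0.0329. Without KO denervated replicate 1 the KO difference of Etfa was -0.52 (adjusted p = 0.0258). The beta subunit Etfb differed by -0.51 ± 0.17 and -0.96 ± 0.17 without such an array. Etfdh, the oxidoreductase that hands these electrons to ubiquinone, gave 5.02, 4.81 and 5.01 on the WT control arrays and 4.08, 4.16 and 3.70 on the WT denervated arrays, against 4.93, 4.94 and 4.74 in KO control and 3.34, 3.89 and 3.64 in KO denervated muscle. Its difference was -0.97 ± 0.17 in WT (1.96-fold lower, adjusted p = 0.00128) and -1.25 ± 0.17 in KO (2.37-fold lower, adjusted p = 0.000186). Denervated and control arrays of Etfdh did not overlap in either genotype.

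All 3 genes of ketone body use were lower in both genotypes. Bdh1, the hydroxybutyrate dehydrogenase of the inner mitochondrial membrane, gave 3.30, 3.27 and 3.66 on the WT control arrays and 1.83, 1.13 and 1.00 on the WT denervated arrays, against 2.93, 2.42 and 3.12 in KO control and 0.50, -1.66 and -2.02 in KO denervated muscle. The difference was -2.09 ± 0.53 in WT (4.25-fold lower, adjusted p = 0.00931) and -3.88 ± 0.53 in KO (14.7-fold lower, adjusted p = 0.000157), with the largest fall of the 43 genes in KO. KO denervated replicate 1 stood 2.16 log2 units above the next array of its group, but below all other arrays. Oxct1, which activates acetoacetate with CoA from succinyl-CoA, gave 6.67, 6.85 and 7.13 on the WT control arrays and 5.79, 6.06 and 5.67 on the WT denervated arrays, against 6.93, 6.93 and 7.04 in KO control and 4.92, 5.03 and 4.61 in KO denervated muscle. The difference was -1.04 ± 0.17 in WT (2.06-fold lower, adjusted p = 0.00066) and -2.11 ± 0.17 in KO (4.33-fold lower, adjusted p = 3.95e-06). Acat1, the acetoacetyl-CoA thiolase, differed by -0.77 ± 0.18 and -0.86 ± 0.18. Ucp3, the uncoupling protein of muscle mitochondria, gave 2.21, 0.94 and -0.63 on the WT control arrays and 1.64, 0.39 and -0.90 on the WT denervated arrays, against 2.56, -0.69 and 1.58 in KO control and 1.71, -0.77 and 1.1 in KO denervated muscle. Arrays of 1 group were spread over 2.48 to 3.25 log2 units and the groups overlapped; the difference was -0.46 ± 0.99 in WT (95% interval -2.64 to 1.71) and -0.47 ± 0.99 in KO (95% interval -2.64 to 1.71).

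Leaving out 1 array in turn ended the call for 10 of the 36 genes lower in WT (Ogdh, Dlst, Sucla2, Mdh2, Pdhb, Pdk2, Acads, Acadvl, Hadhb and Etfb, adjusted p up to 0.183) and for 4 of the 40 in KO (Slc25a20, Hadh, Acsl1 and Etfa, adjusted p up to 0.0975). The WT difference of Acads moved from -0.72 to -0.47 without WT control replicate 2. The other 26 and 36 genes kept theirs; each of the 6 WT arrays ended at least 1 of the WT calls, 4 KO arrays also ended that of Acads, and each of the 6 KO arrays ended at least 1 of the KO calls. A limma fit with the replicate number as a block, shared by both genotypes, ended the WT call of Acads (adjusted p = 0.0723, 0.0232 to 0.314 over the alternatives). It called Cpt1a lower in WT (adjusted p = 0.0392, 0.0278 to 0.545). This block ties WT numbers to KO numbers, so it was no test of pairs within WT. On the slide that held a WT denervated and a WT control array, 41 of 43 genes were lower after denervation (median -0.71), and on the 2 slides that held such a KO pair 41 and 43 were (medians -1.14 and -1.12). Of all genes, 50.2% were lower on the WT slide, and 47.5% and 48.6% on the KO slides.

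Other probes bore on the same genes. A further 25 kept probes covered 20 of the 43 genes, and 24 of them had the sign of the probe used, in each genotype. The exception was a Dlst probe, with differences of 0.11 ± 0.18 in WT, 0.76 ± 0.18 in KO and adjusted p-values of 0.667 and 0.00539, while the other 2 Dlst probes were lower. A Dlat probe gave -2.01 ± 0.16 in WT and -2.19 ± 0.16 in KO, a larger fall than the Dlat probe used. A second Hadha probe gave -0.33 ± 0.27 and -0.25 ± 0.27, neither past the threshold. Which transcripts these probes read is not given in the sources used here.

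Further genes of the citric acid cycle and pyruvate use, from a list drawn up for comparison, were mostly lower as well. Of 20 other genes of the citric acid cycle and pyruvate use, 18 were measured: 12 were lower and 0 higher in WT (median -0.74; 1 higher at an unadjusted p under 0.05), and 14 lower and 1 higher in KO (median -1.1). The smallest adjusted p-values in WT were those of the phosphatase Pdp1 (-1.41 ± 0.14) and of the succinate dehydrogenase subunits Sdhb (-1.43 ± 0.16), Sdhc (-1.11 ± 0.13) and Sdha (-1.46 ± 0.18). In KO they were those of Sdhb (-2.20 ± 0.16), Pdp1 (-1.76 ± 0.14), Sdha (-1.89 ± 0.18) and the pyruvate carrier Mpc2 (-1.48 ± 0.15). The gene higher in KO was the kinase Pdk3 (1.12 ± 0.30, adjusted p = 0.00989), which gave 0.79 ± 0.30 in WT (adjusted p = 0.0561).

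The list of other fatty acid and ketone genes was mostly not called: of 31 measured (32 listed), 20 in WT and 17 in KO did not pass the test. In WT 9 were lower and 2 higher (median -0.19), where 20.6% and 18.7% of all genes were, and in KO 12 were lower and 2 higher (median -0.31), where 23.2% and 23.7% were. The 2 higher genes were the acyl-CoA synthetases Acsl3 (3.02 ± 0.25 in WT, 2.64 ± 0.25 in KO) and Acsl6 (3.81 ± 0.60 and 3.00 ± 0.60), whereas Acsl1 among the 43 genes was lower in KO. Lower genes included the enoyl-CoA isomerase Eci1 (-1.24 ± 0.14 and -1.68 ± 0.14), the bifunctional enzyme Ehhadh (-1.40 ± 0.16 in WT), the thiolase Acaa2 (-1.95 ± 0.24 and -2.46 ± 0.24) and the lipid droplet protein Plin5 (-3.36 ± 0.28 in KO). Of 13 regulators 12 were measured, with 7 lower in WT and 9 in KO and 0 higher in either by limma (0 also at an unadjusted p, since every difference was below 0). These included the nuclear receptors Rxrg (-2.94 ± 0.21 and -3.03 ± 0.21), Ppara (-2.39 ± 0.22 and -2.74 ± 0.22) and Esrra (-1.16 ± 0.15 and -1.62 ± 0.15), and the muscle regulator Perm1 (-3.86 ± 0.41 and -4.93 ± 0.41).

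In control muscle, KO and WT did not differ detectably in these genes. None of the 43 was called in either direction (limma), where 0.00656% of all genes, Smad4 alone, were lower and 0.0% higher; at an unadjusted p under 0.05, 1 member was higher, Pdk4, and 0 were lower. The median KO minus WT difference was 0.03 (-0.06 to 0.05 over the alternatives), with 18 of 43 genes below 0, and in 3 genes (4.75% of all genes) all KO arrays lay below all WT arrays. For Pdk4 the KO control arrays (6.78, 5.14 and 5.22) all lay above the WT control arrays (4.64, 4.54 and 4.21), a difference of 1.25 ± 0.45 (95% interval 0.26 to 2.24) that missed the threshold (adjusted p = 1.0). Without KO control replicate 1 the difference of Pdk4 was 0.72, and without that or any other single array 0 members were called. For Cs the 95% interval of the difference was -0.36 to 0.41, for Acadm -0.37 to 0.50 and for Cpt1b -0.36 to 0.42.

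**Figure D2:**
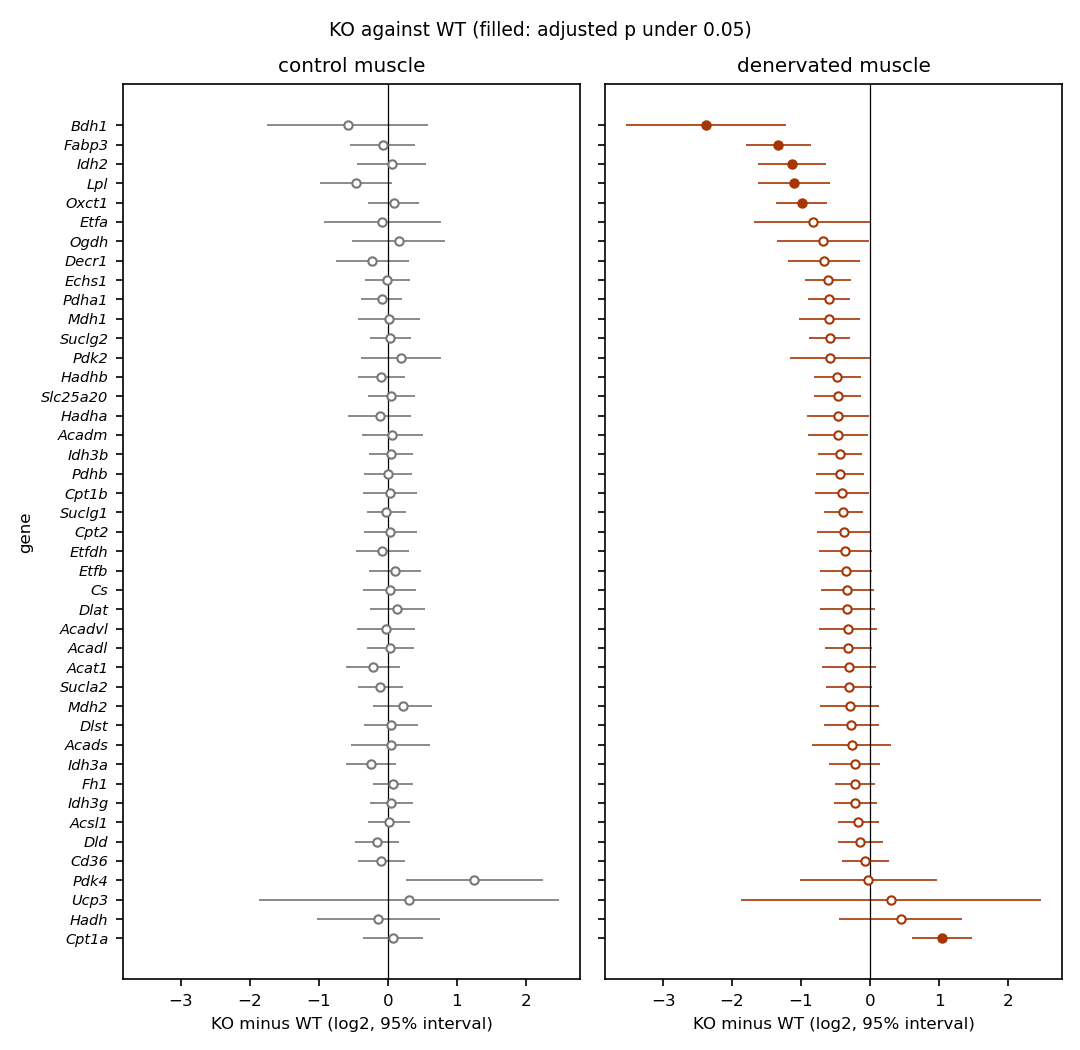
KO minus WT difference (log2) with its 95% interval for each of the 43 genes in control muscle (left) and denervated muscle (right), ordered by the value in denervated muscle. Filled points have an adjusted p under 0.05 over all genes: none in control muscle, and Bdh1, Fabp3, Idh2, Lpl, Oxct1 and Cpt1a in denervated muscle.

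In denervated muscle, 5 of the 43 genes were lower in KO than in WT and 1 was higher, where 1.23% of all genes were lower and 0.958% higher. The lower genes were Idh2, Fabp3, Lpl, Bdh1 and Oxct1, and the higher one was Cpt1a. Over the whole list 40 of 43 differences were below 0, with a median of -0.38, against -0.01 over all genes tested. Muscle fibre markers lay the same way, with 10 of 12 below 0, 2 above and a median of -0.29. So did erythrocyte markers, with 3 of 3 below 0 and a median of -1.29. Endothelial, adipocyte, macrophage, fibroblast and Schwann cell markers had medians above 0. In 17 of the 43 genes all KO denervated arrays lay below all WT denervated arrays, as in 11.5% of all genes. By role, the medians were -0.32 for the citric acid cycle, -0.43 for the pyruvate dehydrogenase group, -0.46 for beta-oxidation and -0.99 for the ketone genes.

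Fabp3 read 5.67, 6.05 and 5.78 on the WT denervated arrays and 4.99, 4.35 and 4.18 on the KO denervated arrays, with no overlap. The KO minus WT difference was -1.33 ± 0.21 (2.51-fold lower, adjusted p = 0.00894). Its probe lies on chromosome 4, 129817668 to 129817727, plus strand (build mm8, as for the positions that follow). Oxct1 read 5.79, 6.06 and 5.67 in WT and 4.92, 5.03 and 4.61 in KO, again apart. It differed by -0.99 ± 0.17 (1.98-fold lower, adjusted p = 0.0122; chromosome 15, 4103898 to 4103957, plus strand). Idh2 differed by -1.13 ± 0.22 (2.19-fold lower, adjusted p = 0.0272; chromosome 7, 79971406 to 79971465, minus strand), on values of 1.64, 1.23 and 1.73 in WT and 0.88, 0.13 and 0.21 in KO. All 3 genes were within 0.1 log2 units between KO and WT in control muscle (-0.08 ± 0.21, 0.09 ± 0.17 and 0.05 ± 0.22).

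Lpl read 4.40, 4.58 and 4.39 in WT and 3.65, 3.09 and 3.33 in KO denervated muscle. The difference was -1.1 ± 0.24 (2.14-fold lower, adjusted p = 0.0385; chromosome 8, 71835357 to 71835416, plus strand), next to -0.46 ± 0.24 in control muscle. Bdh1 had the largest difference, -2.38 ± 0.53 (5.2-fold lower, adjusted p = 0.0441; chromosome 16, 31377039 to 31377098, plus strand), on values of 1.83, 1.13 and 1.00 in WT and 0.50, -1.66 and -2.02 in KO. The denervated groups did not overlap, and KO replicate 1 lay nearest to WT. In control muscle Bdh1 differed by -0.58 ± 0.53, on values of 3.30, 3.27 and 3.66 in WT and 2.93, 2.42 and 3.12 in KO. There too all KO arrays lay below all WT arrays, as in 4.75% of all genes. In denervated muscle Cpt1a went the other way, from -0.65, -0.87 and -0.93 in WT to 0.54, -0.20 and 0.33 in KO, with all KO arrays above all WT arrays. The difference was 1.04 ± 0.20 (2.05-fold higher, adjusted p = 0.0216; chromosome 19, 3385374 to 3385433, plus strand), while the muscle form Cpt1b gave -0.40 ± 0.18 (adjusted p = 0.289). The exon or untranslated region that a probe reads is not given in the sources used here.

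**Figure D3:**
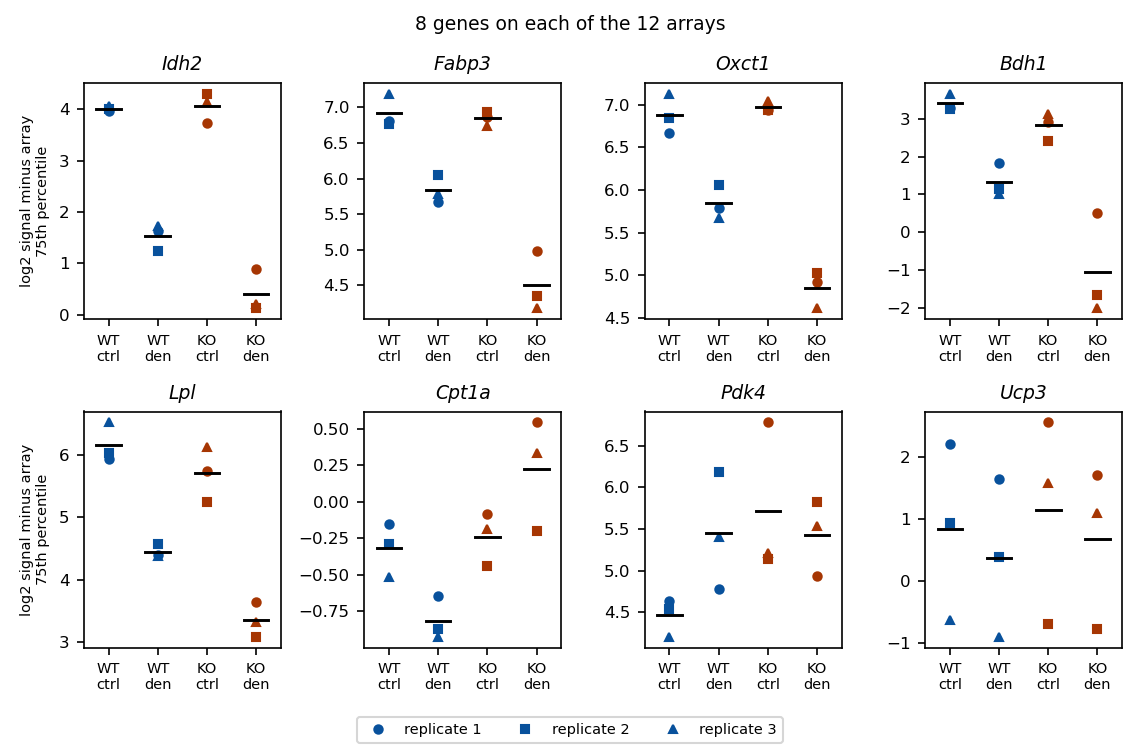
Scaled log2 signal of 8 genes on each array, by group (WT in blue, KO in brown; marker shape gives the replicate number, and black bars are the means of 3 arrays). For Idh2, Fabp3, Oxct1, Bdh1 and Lpl the KO denervated points lie below the WT denervated points, for Cpt1a above them, and for Pdk4 and Ucp3 these groups overlap.

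Other probes of the called genes gave like values in denervated muscle. The 2 other Oxct1 probes differed by -1.07 ± 0.15 (adjusted p = 0.00439) and -1.27 ± 0.18 (adjusted p = 0.00587), the other Lpl probe by -1.28 ± 0.23 (adjusted p = 0.0165) and the other Bdh1 probe by -3.10 ± 0.58 (adjusted p = 0.022). The other Cpt1a probe gave 1.1 ± 0.28 and missed the threshold (adjusted p = 0.0783). Idh2 and Fabp3 were read by 1 kept probe each. Just outside the threshold lay Pdha1 (-0.60 ± 0.14, adjusted p = 0.0507), Suclg2 (-0.59 ± 0.14, adjusted p = 0.0513) and Echs1 (-0.61 ± 0.15, adjusted p = 0.068), each with all KO arrays below all WT arrays. At an unadjusted p under 0.05, 20 of the 43 genes were lower, against 8.53% of all genes. Outside the 43 genes, the succinate dehydrogenase subunit Sdhb (-0.81 ± 0.16, adjusted p = 0.0272), the acyl-CoA dehydrogenase Acadsb (-0.83 ± 0.17, adjusted p = 0.0278) and the nuclear receptor Esrrg (-1.30 ± 0.23, adjusted p = 0.0164) were lower in KO, each as the 1 gene called of its list (18, 31 and 12 measured). Of these, Esrrg alone was also lower in KO control muscle at an unadjusted p under 0.05 (limma), where 2.36% of all genes were.

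The direction was the same within slides. On slide 1, with 1 array of each genotype, 38 of 43 genes were lower in KO (median -0.47, against -0.06 over all genes), and on slide 4, with 1 KO and 2 WT arrays, 38 were (median -0.23, against 0.04). Of all genes, 56.7% were lower in KO on slide 1 and 46.2% on slide 4. Fabp3 differed by -0.68 and -1.56 on these slides, Idh2 by -0.75 and -1.36, Oxct1 by -0.87 and -0.84, Lpl by -0.74 and -1.39, Bdh1 by -1.33 and -2.72, and Cpt1a by 1.19 and 0.69. None of the 6 calls held under each of 24 alternatives, although none changed sign; with only these 2 groups in the fit, or with normexp background correction, 0 of the 43 genes were called (adjusted p of the 6 genes from 0.0562 to 0.785). Leaving out 1 array ended the call of Idh2 for WT denervated replicates 1 and 3 and KO denervated replicates 2 and 3 (up to 0.11), of Cpt1a for WT replicates 2 and 3 and KO replicates 1 and 3 (up to 0.0795), and of Oxct1 for WT replicate 2 and KO replicate 3 (up to 0.0562). It ended the call of Lpl for 8 of the 12 arrays, all but KO denervated replicate 1, WT control replicate 3 and KO control replicates 2 and 3 (up to 0.145), and of Bdh1 for 11, all but KO denervated replicate 1 (up to 0.168). Fabp3 passed without any 1 array (up to 0.0459). Of all genes called here 43.8% were higher in KO, 32.2% with each array scaled to its median and 68.0% with normexp. Erythrocyte markers gave sums of 11.3 to 24.2 in WT and 5.22 to 12.2 in KO denervated muscle, and muscle fibre markers 1977 to 2739 and 1660 to 2194. No marker of any list was called. At an unadjusted p under 0.05 (limma), 3 of 3 erythrocyte and 3 of 12 muscle fibre markers were lower. At that threshold 1 of 5 fibroblast markers, Col3a1, was higher. The part of these markers' cells in these differences was not tested.

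The change with denervation was set against genotype by the interaction, the KO response minus the WT response. None of the 43 genes was called (limma), where 0.184% of all genes were; at an unadjusted p under 0.05, 9 members were below 0 and 1 above, against 4.86% and 4.57% of all genes. The interaction was below 0 in 38 of the 43 genes, with a median of -0.43, against 0.01 over all genes. Muscle fibre markers lay the same way, 11 of 12 below 0 with a median of -0.42 (Des, Tnnt3 and Ckm at an unadjusted p under 0.05), and so did erythrocyte markers, 3 of 3 with a median of -0.68; their part in the interaction of the 43 genes was not tested. The smallest adjusted p-values were those of Oxct1 (-1.08 ± 0.24, adjusted p = 0.134), Fabp3 (-1.25 ± 0.30, adjusted p = 0.159), Idh2 (-1.18 ± 0.32, adjusted p = 0.212) and Cpt1a (0.96 ± 0.28, adjusted p = 0.264). Without KO denervated replicate 1, Bdh1 (-2.57, adjusted p = 0.0283) and Fabp3 (-1.49, adjusted p = 0.0366) passed; over the alternatives their adjusted p reached 1.0. The interaction uses the same arrays as the comparisons above and is not independent of them.

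**Figure D4:**
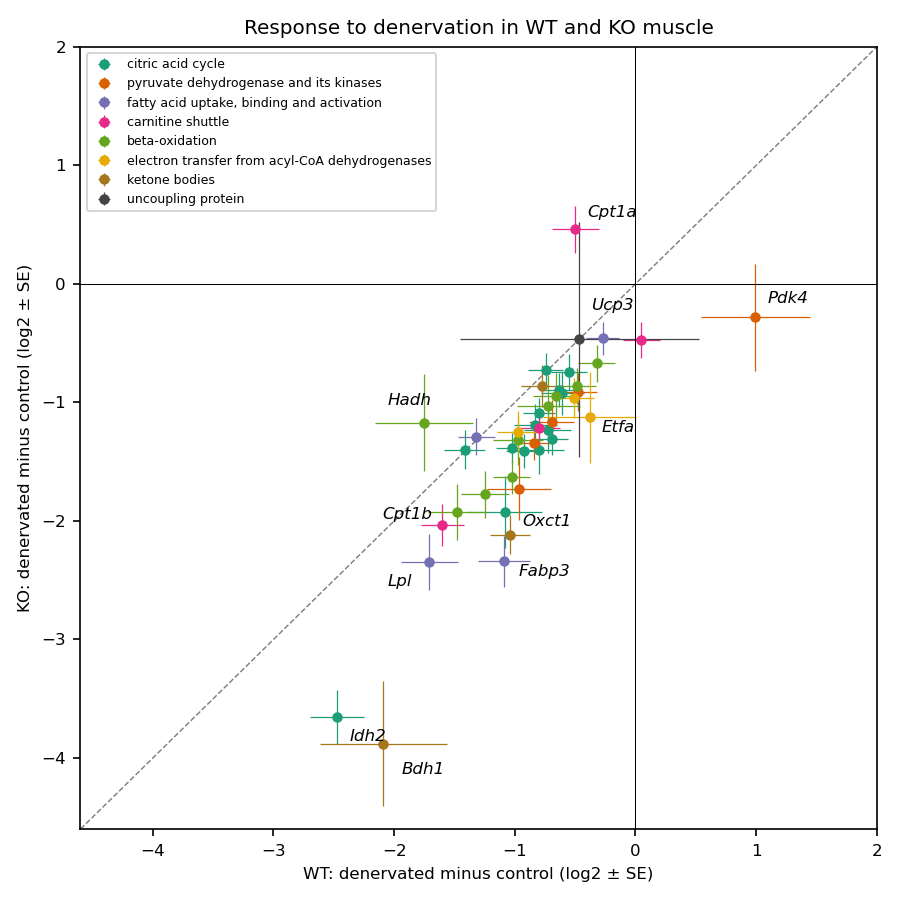
Denervated minus control difference in KO (vertical axis) against WT (horizontal axis) for the 43 genes, in log2 with standard errors, coloured by role. The dashed line marks equal change; 38 of 43 genes lie below it, with Cpt1a above it.

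Summed up by array, the median of the 43 genes relative to the mean of the WT control arrays was -0.75, -0.63 and -1.01 on the 3 WT denervated arrays. It was -1.23, -1.18 and -1.21 on the KO denervated arrays, and -0.08, 0.10 and -0.04 on the KO control arrays. Each KO denervated array was thus below each WT denervated array, and the KO control arrays lay on both sides of the WT control mean. These medians describe the arrays and carry no test.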

How the data were processed

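RNA of whole gastrocnemius muscle was hybridised to 12 one-colour Agilent arrays, 3 in each of 4 groups defined by the titles of the samples. Each deposited file lists the intensity of every spot on an array, which the software had background-subtracted and detrended but left unscaled between arrays, per the file headers. Feature Extraction is version 10.7.3.1 in those headers and 10.5.1.1 in the submitters' processing notes. A deposited table of processed intensity, used as an alternative, correlated with the scanner values at 0.9995 to 1.0; the authors' method for it is not given in the sources used here.

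Control spots and outlier spots were left out, spots of 1 probe averaged, and the log2 signal had the array's 75th percentile subtracted. Of 41174 probes, the 22535 well above background on all 3 arrays of at least 1 group were kept. Probes were named by RefSeq accession (24367), symbol (6307) or synonym (2425), otherwise by the file's name (8075). The brightest kept probe stood for its gene, which gave 15234 genes, 234 with a missing value; no value was imputed. Probe positions are those of the files, on build mm8. No sample column of another series was present (0 columns).

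limma 3.58.1 in R 4.3.3 (lmFit, eBayes, two-sided; 8 residual and 3.15 prior degrees of freedom) was fitted to all 12 arrays with 4 group means, with Benjamini-Hochberg adjustment over all genes in each of 5 comparisons. An adjusted p under 0.05 is a call. The smallest p that exact permutation of 3 against 3 arrays allows is 0.1, and no such test is given. The script was tested on simulated data without batches. A shift of 1 log2 unit was called in 40% of shifted genes between genotypes in denervated muscle and in 20% for the interaction. A shift of 0.5 was called in 0% for both. In control muscle these shares between genotypes were 44% and 8%. Python 3.11.15, pandas 2.3.3, numpy 2.4.6 and matplotlib 3.10.9 made the summaries. Arrays give no counts, so their number, 3 a group, limits the precision.

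The 43 genes, the further lists and the tests were chosen with earlier results of these data known. A set of 22 genes was given array by array (Cs, Idh2, Idh3a, Ogdh, Suclg1, Mdh2, Pdha1, Pdk2, Pdk4, Cpt1a, Cpt1b, Acsl1, Acadm, Acadvl, Hadha, Etfdh, Fabp3, Cd36, Lpl, Ucp3, Bdh1, Oxct1), with any other member called between genotypes or called higher after denervation; of each further list, up to 4 genes with the smallest adjusted p in a comparison were named, and genes called higher were added after their values were seen. Each motif was searched by its letters on both strands.

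The 24 alternatives were normexp background correction (offset 50), quantile normalization, array median scaling, the authors' processed values, no filter on dim probes, a filter on all 12 arrays, the mean of a gene's probes, the slide as a fixed and as a random block (consensus correlation 0.122), the scan day as a block, the replicate number as a block, only the groups compared, and each array left out in turn. Deviations of same-numbered control and denervated arrays from their group means correlated at 0.303, 0.108 and 0.233 in WT. In KO the correlations were 0.09, 0.0137 and 0.175, and between genotypes they ran from -0.0997 to 0.298. The arrays of WT replicate 1, KO replicate 3 and denervated replicate 2 of WT and KO (0.298) shared a slide. So did control replicate 3 (-0.0997), control replicate 2 (0.164) and denervated replicate 1 (0.201) of WT and KO. These values do not settle which samples the numbers pair. The replicate block was 1 factor shared by both genotypes.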

Additional observations from a re-analysis of the deposited data

How the results depend on the processing

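No called gene changed direction under the 24 alternatives. Of the genes not called, 2 of 7 (WT denervation), 2 of 3 (KO denervation), 29 of 43 (genotypes, control muscle), 5 of 37 (genotypes, denervated muscle) and 6 of 43 (interaction) changed sign under at least 1, and the median in control muscle ranged from -0.06 to 0.05. Of the calls, 20 of 36 in WT, 31 of 40 in KO and 0 of 6 between genotypes held under all of them; the causes were not tested. With normexp, WT denervation gave 23 lower members, 1909 genes in all and a median of -0.98, KO denervation 2719 genes, KO against WT in denervated muscle 0 lower and 0 higher members, 25 genes and a median of -0.23, and the interaction 0 genes and a median of -0.32. Quantile normalization gave medians of -1.01 (KO denervation), -0.26 (genotypes, denervated muscle, with 3 members lower) and -0.30 (interaction), and the authors' values -1.05, 3 members lower, and an interaction median of -0.31. With no filter, denervated genotypes gave 2 lower and 0 higher members of 203 genes, and the interaction 5 genes; with only the groups compared, 0, 0 and 126. The slide as a random block and the scan day each gave 8 lower members; the interaction gave 12 genes with the strict filter and 4 with the slide fixed. Genotypes in control muscle gave 0 genes (normexp, no filter, slide fixed, replicate block, only these groups), 5 (quantile, array median), 4 (the authors' values, mean of probes) or 2 (strict filter, slide random, scan day). The replicate block called 36 members lower in WT (35 shared). That block was shared by both genotypes, although the sources used here do not say that the numbers match samples. It gave 40 lower and 1 higher (Cpt1a) in KO, and 4 lower and 1 higher between denervated genotypes. It ended the genotype call of Idh2 (limma, adjusted p = 0.0512) and changed no other call between genotypes. Leaving out 1 array gave 0 to 2 genes for genotypes in control muscle, 151 to 320 genes, 1 to 5 lower and 0 to 1 higher members for genotypes in denervated muscle, 5 to 51 genes and 0 to 2 lower members for the interaction, 28 to 37 lower and 0 to 1 higher members for WT and 37 to 40 lower and 0 to 1 higher for KO denervation. Depth cannot be read from arrays; every probe used was well above background on all arrays.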

Other observations

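Ucp3 values followed the replicate number within each genotype. In WT, control and denervated arrays read 2.21 and 1.64 for replicate 1, 0.94 and 0.39 for replicate 2, and -0.63 and -0.90 for replicate 3. The denervated array was thus lower within each number although the groups overlapped. In KO the numbers gave 2.56 and 1.71, -0.69 and -0.77, and 1.58 and 1.1, again with the denervated array lower within each number. The order of the numbers differed between WT and KO. With the replicate number as a block shared by both genotypes, the WT difference of Ucp3 did not pass the limma test (-0.46, adjusted p = 0.622, 0.406 to 0.989 over the alternatives). That block cannot follow an order that differs between genotypes, and no test of pairs within WT was run.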
